A study of Mus musculus with 4 samples.

Results

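In a CD3 and CD4 sort of mouse spleen, 153 of 19100 sequenced cells (0.801%) carried transcripts of the gamma-delta T cell receptor or of natural killer (NK) cell receptors. They were chosen by their own UMIs, the molecule counts of droplet sequencing. A kept cell had at least 2000 UMIs and 500 detected genes and at most 10% mitochondrial UMIs. A gated cell also had at least 2 UMIs of Trdc, or at least 2 UMIs summed over Ncr1, Klrb1c and Klre1, and no UMI of Foxp3 or Cd79a. The Trdc arm held 126 cells, 27 cells entered through the NK receptors alone, and 1 cell met both conditions. Another 8 cells met either arm but held a Foxp3 or Cd79a UMI and were left out.

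The sorted cells were cultured for 6 hours with beads carrying antibodies to CD3, of the T cell receptor complex, and to CD28, a co-stimulatory receptor. They were profiled with 10x 3′ chemistry. The 4 libraries were 1 female and 1 male library labelled Irf5-/- and 1 female and 1 male library labelled WT, all from spleens of C57BL6/J mice and all stimulated; unstimulated cells were not analysed here. The libraries are called KO-female, KO-male, WT-female and WT-male after their labels. The labels name neither the ages of the mice, the number of mice in a library, nor the allele of the deletion. The 2 libraries of a group differ in sex, so they come from different mice and their spread holds sex, mouse and library together. Irf5 went against the labels: outside the gate its level was 8.54 and 9.08 CPM (UMIs of the gene over all UMIs of the summed cells, scaled to a common total) in the KO-female and KO-male libraries, and 0.821 and 1.11 CPM in the WT-female and WT-male libraries. Directions between genotypes below are therefore between libraries labelled knockout and libraries labelled WT. The libraries held 28841161 to 55850754 UMIs and 1814 to 6543 kept cells. The WT-female library had the fewest kept cells and 36.2% of its UMIs in droplets under 200 UMIs, against 8.62% to 14.7% in the other libraries.

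Gamma-delta T cells build their antigen receptor from a gamma and a delta chain in place of the alpha and beta chains of CD4 T cells. They leave the thymus in subsets with fixed gamma and delta segments, some set to make interferon gamma and others interleukin 17. NK cells carry no rearranged receptor, and sense targets through lectin-like and immunoglobulin-like receptors that signal through adaptors such as Tyrobp and Fcer1g. Trdc, the constant gene of the delta chain, lies within the alpha chain locus (chr14:54142851-54148868, plus strand, GRCm38). Trac, the alpha constant gene, lies downstream of it (chr14:54220521-54224206, plus strand).

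The gamma chain has several constant genes on chromosome 13, of which Tcrg-C1 and Tcrg-C2 are nearly the same in sequence, and the division of UMIs between that pair is uncertain. The first 60 coding bases of the 4 constant genes in GENCODE M21 are shown because counts of these genes divide the gated cells below. Capitals mark the 12 positions at which the 4 genes are not all the same.
Tcrg-C1: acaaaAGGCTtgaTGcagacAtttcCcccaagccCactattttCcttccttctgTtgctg
Tcrg-C2: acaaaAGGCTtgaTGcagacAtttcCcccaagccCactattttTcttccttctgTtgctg
Tcrg-C3: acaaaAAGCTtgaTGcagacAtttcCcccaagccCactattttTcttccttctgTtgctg
Tcrg-C4: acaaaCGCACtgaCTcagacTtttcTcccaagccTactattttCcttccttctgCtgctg
Over the aligned coding bases, Tcrg-C1 and Tcrg-C2 were 97.4% identical, and Tcrg-C1 and Tcrg-C4 were 78.7% identical. In the last 300 bases of the transcript, nearest to where 3′ reads fall, these values were 93.6% and 60.4%. Tcrg-C4 is thus the more separable gene, and Tcrg-C1 and Tcrg-C2 the least separable pair.

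Klrc2, Klrc1 and Klrk1 encode activating and inhibitory lectin-like receptors and lie close to each other on chromosome 6. They were chosen after their values were seen, from the 9 NK receptor genes outside the rule that passed the expression filter. Klrc2 and Klrc1 passed it only with the UMIs of gated cells, so no order by fold is read. The 250 bases before the RefSeq starts of the 3 genes (GRCm38.p6) are printed so that their upstream sequence can be compared. Capitals mark the core motif of RUNX factors, TGTGGT, searched on both strands and printed as ACCACA where it lies on the other strand.
Klrc2 promoter (chr6:129660597-129660846, minus strand): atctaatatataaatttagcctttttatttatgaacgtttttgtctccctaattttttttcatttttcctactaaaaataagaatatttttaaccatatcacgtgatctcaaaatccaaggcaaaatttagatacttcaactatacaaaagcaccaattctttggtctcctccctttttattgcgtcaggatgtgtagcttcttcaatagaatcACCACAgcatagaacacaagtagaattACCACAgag
Klrc1 promoter (chr6:129678974-129679223, minus strand): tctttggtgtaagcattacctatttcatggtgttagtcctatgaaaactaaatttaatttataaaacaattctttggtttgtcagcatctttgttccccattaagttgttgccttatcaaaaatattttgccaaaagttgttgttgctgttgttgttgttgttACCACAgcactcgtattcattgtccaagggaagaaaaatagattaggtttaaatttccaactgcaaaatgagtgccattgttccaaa
Klrk1 promoter (chr6:129623865-129624114, minus strand): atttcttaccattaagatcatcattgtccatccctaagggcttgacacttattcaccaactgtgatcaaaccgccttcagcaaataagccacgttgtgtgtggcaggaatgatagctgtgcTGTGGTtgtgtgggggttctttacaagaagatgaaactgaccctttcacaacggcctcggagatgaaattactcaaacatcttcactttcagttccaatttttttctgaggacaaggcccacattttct
Klrc2 held 2 matches, and Klrc1 and Klrk1 held 1 each. Of 32851 windows of this length before RefSeq starts, 4614 (14.05%) held a match. These matches are a description of the letters in 3 windows.

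The defining markers only partly bore out a label of NK and gamma-delta cells. Of the 5 genes Trdc, Tcrg-C4, Klrd1, Ncr1 and Klre1, 94 gated cells had UMIs of 1 gene, 37 of 2, 15 of 3 and 1 of 4, and 6 cells had UMIs of none. Ncr1, the receptor that defines mouse NK cells, was seen in 4 gated cells, all in the KO-female library. Klrb1c (NK1.1) was seen in 18 cells, Klre1 in 16 and Klrd1 in 30. Tyrobp was seen in 8 gated cells and Fcer1g in 11. The alpha chain transcript Trac was seen in 95 gated cells (62.1%), against 87.2% of all other cells. Cd8a was seen in 0 of 153 gated cells, which allows a share with a UMI of up to 1.96%, and Cd8b1 in 3. A set of 49 cells with erythroid transcripts, which should lack these receptors, was taken outside the gate, so cells that met the rule could not be among them. Of the 49, 0 had a UMI of Trdc, Ncr1, Klrb1c, Klre1 or Klrd1, which allows a share with a UMI of up to 6.12%. A Trac UMI was seen in 14 of the 49 (28.6%). Their median depth was 17652 UMIs, against 6525 in gated cells. The cells are therefore called gated cells here, and by arm or receptor transcript where these matter.

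B cell, myeloid and erythroid markers had low summed levels in the gated cells. Of 7 B cell markers outside the rule, 3 had a UMI, with a summed level of 41.3 to 89.2 CPM per library, against 26.2 to 167 CPM in all other cells; the gated level was the higher in 3 of 4 libraries, all but KO-female. Of 11 myeloid markers, 3 had a UMI, at 22.3 to 82.6 CPM against 45.5 to 90.4 CPM. Of 10 erythroid markers, 7 had a UMI, at 10.9 to 67.1 CPM, against 28.7 to 1463 CPM in all other cells. Summed marker lists of other lymphocytes were higher in gated than in other cells: 18.6 to 163 against 14.1 to 18.7 CPM for CD8 T cells (Cd8a at 0), 234 to 831 against 163 to 250 CPM for innate lymphoid cells, and 472 to 883 against 167 to 277 CPM for Zbtb16 innate-like T cells. Not every member of the first 2 lists was higher. Gated cells held 3 of 1247 Cd8b1 UMIs (0.241%) and 0 UMIs of Il1rl1, Arg1, Il22 and Areg. The CD8 list also holds Nkg7 and Eomes, and Il7r gave 398 gated UMIs to the innate lymphoid list. Regulatory T cell markers were at 483 to 888 against 395 to 533 CPM, and CD4 T cell markers at 2396 to 3788 against 3002 to 3404 CPM. Their part in the results was not tested. Scores for droplets that hold more than 1 cell marked 15 gated cells (9.80%), against 4.40% of all kept cells. With the highest scores removed 138 gated cells remained, and 1609 genes were called against all other cells, where the full set gave 1453. Of 43 kept barcodes that occurred in more than 1 library, 2 were gated cells, and neither was gated in its second library.

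The rule was sharpest where Trdc was high. As a description of the threshold, 179 cells without Foxp3 or Cd79a had 1 Trdc UMI, below the Trdc condition, and 43 had 2. Cells of the NK receptor arm are counted here by their Trdc UMIs, so some with no Trdc UMI or 1 were gated. A UMI of Tcrg-C1, Tcrg-C2 or Tcrg-C4 (Tcrg-C below) was found in 0.553% of cells with no Trdc UMI, in 4.47% of those with 1, in 18.6% of those with 2, in 28.9% of those with 3 or 4 and in 57.8% of those with 5 or more. A Trac UMI was found in 88.1%, 77.7%, 65.1%, 65.8% and 51.1% of the same cells, in that order. Median depth was 6804, 5543, 6582, 6781 and 8154 UMIs. Cells with more Trdc UMIs thus had gamma constant UMIs more often and Trac UMIs less often, with cells of both kinds on each side of the threshold.

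**Figure D1:**
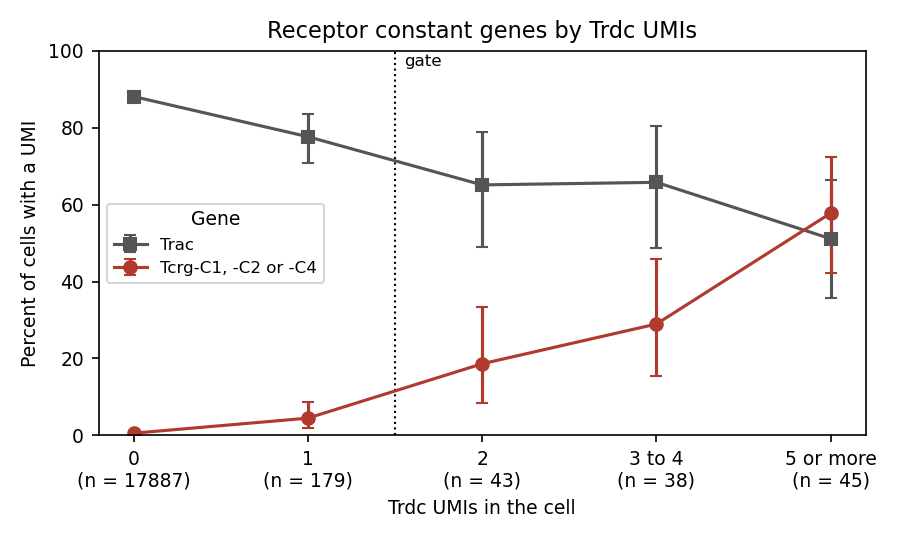
Percent of cells with a Trac UMI (squares) and with a UMI of Tcrg-C1, Tcrg-C2 or Tcrg-C4 (circles) by the number of Trdc UMIs in the cell. Kept cells without Foxp3 or Cd79a are shown, those of the NK arm included. Bars are exact 95% binomial intervals, and the dotted line is the Trdc condition of the gate. The gamma constant share runs from 0.553% with no Trdc UMI to 57.8% with 5 or more, and the Trac share from 88.1% to 51.1%.

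Gated cells were a small share of every library. They were 64 of 6178 cells in the KO-female library (1.04%, exact 95% interval 0.799% to 1.32%), 23 of 1814 in the WT-female library (1.27%, 0.805% to 1.90%), 33 of 6543 in the KO-male library (0.504%, 0.347% to 0.708%) and 33 of 4565 in the WT-male library (0.723%, 0.498% to 1.01%). Intervals here and below cover counting error only. The share was 0.770% ± 0.376 (SD, n = 2) in libraries labelled knockout and 0.995% ± 0.385 (SD, n = 2) in libraries labelled WT. The difference of -0.225 percentage points was smaller than the SD of either group, which holds the difference between the sexes (two-sided exact permutation p = 0.667, where 2 libraries against 2 cannot go below 0.333). The difference had the other sign, at 0.0473 percentage points, without the WT-female library, and at 0.0405 without the KO-male library, where the groups are no longer matched for sex. Within each sex the library labelled knockout was the lower, at 1.04% against 1.27% in females and 0.504% against 0.723% in males, with overlapping intervals. The gate itself reads depth. With every cell thinned to 2000 UMIs before the gate, 64 cells were gated, and the order in females turned, at 0.567% in the KO-female against 0.496% in the WT-female library, while males stood at 0.107% and 0.285%. The difference between labels was then -0.0537 percentage points, with a knockout mean of 0.337% and a WT mean of 0.390% (two-sided exact permutation p = 1). Without thinning, both female libraries lay above both male libraries, with means of 1.15% and 0.614%, and 1 library of each sex per genotype does not separate sex from library. The sort was on CD3 and CD4. Its purity in each library is not known here, and its part in these shares was not tested.

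With at least 1 UMI of Cd3e, Cd3d or Cd3g required as well, 143 gated cells (93.5%) remained, at 0.955%, 1.21%, 0.474% and 0.679% of the KO-female, WT-female, KO-male and WT-male libraries. The condition separated little, since 94.1% of all other cells and 20.4% of the erythroid cells also held such a UMI. The 10 gated cells without one (5, 1, 2 and 2 in the same order) had a median of 4437 UMIs, against 6845 in those with one. NK receptor transcripts outside the rule summed to 2829, 6294, 368 and 254 CPM in the 10 cells, and to 540, 564, 256 and 311 CPM in the 143, in the KO-female, WT-female, KO-male and WT-male libraries. The CD3-negative cells were far higher in the female libraries, with 1 cell in WT-female, and lower in WT-male. Of the 10 cells, 4 had entered through NK receptors, Trac was seen in 5, Tyrobp in 4 and Cd4 in 0, which allows a share with a UMI of up to 30%. A test of CD3-positive against CD3-negative gated cells could not be fitted, because only the KO-female library had 5 CD3-negative cells.

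**Figure D2:**
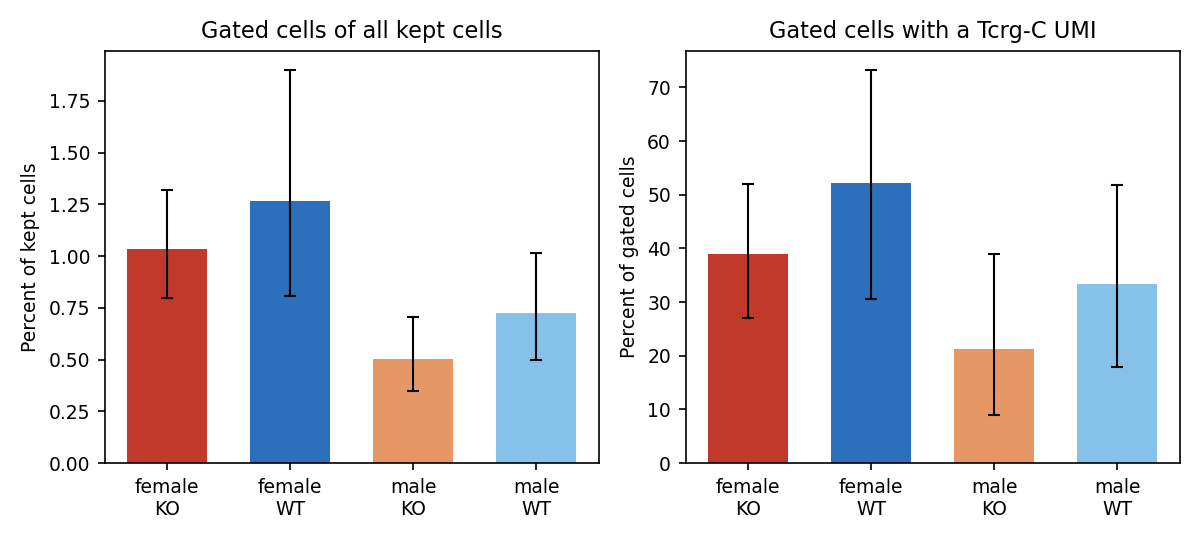
Left, gated cells as a percent of kept cells in each library; right, gated cells with a UMI of Tcrg-C1, Tcrg-C2 or Tcrg-C4 as a percent of gated cells; bars carry exact 95% binomial intervals, and KO and WT are the labels. Both female libraries lie above both male libraries on the left, and within each sex the library labelled WT lies above the one labelled knockout in both panels, with overlapping intervals. Depth is not matched here, and with cells thinned before the gate the order of the 2 female libraries on the left turns (0.567% KO and 0.496% WT).

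Gamma constant transcripts divided the gated cells into 2 kinds. Of the 153 gated cells, 55 (35.9%) had a Tcrg-C UMI and 98 had none. The share with one was 39.1% in the KO-female library, 52.2% in the WT-female, 21.2% in the KO-male and 33.3% in the WT-male library. This division was chosen after the values were seen, and the values that follow are a description with no test. Median depth was 5561 UMIs in the 55 cells and 7082.5 in the 98.

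Cd4 and Trac were more often seen in the cells without Tcrg-C. Cd4, the co-receptor on which the cells were sorted, was seen in 0 of the 55 cells with Tcrg-C, which allows a share with a UMI of up to 5.45%. It was seen in 28 of the 98 without (28.6%) and in 26.9% of all other cells. Most sorted cells thus had no Cd4 UMI, and the limit is not one on the share that expresses Cd4. Trac was seen in 18 of the 55 (32.7%) and 77 of the 98 (78.6%). Its level in cells with Tcrg-C was 58.2, 84.5, 207 and 85.1 CPM in the KO-female, WT-female, KO-male and WT-male libraries, and 474, 364, 725 and 592 CPM in those without. All other cells had 623, 631, 659 and 674 CPM. Gated cells with Tcrg-C were below both other groups in every library. Thinned to 2000 UMIs, 14.5% of the 55 cells, 51.0% of the 98 and 63.9% of all other cells kept a Trac UMI. The beta constant transcript Trbc2 did not divide in this way, with UMIs in 51 of the 55 cells and 88 of the 98, nor did the summed alpha-beta complex list, at 1702 to 4120 CPM with Tcrg-C and 1596 to 3733 CPM without.

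Among the 55 cells, the dominant constant gene went with different transcripts. Tcrg-C1 led in 16 cells, Tcrg-C4 in 19 and Tcrg-C2 in 10, with 10 ties. Of the 16 cells led by Tcrg-C1, 11 had UMIs of Trdv4, a delta variable segment, 9 of Tcrg-V6, a gamma variable segment, and 12 of Cd163l1, a scavenger receptor of gamma-delta cells that make interleukin 17. Trdv4 and Tcrg-V6 had no UMI in the cells led by Tcrg-C4 or Tcrg-C2, nor in the 98 cells without Tcrg-C. In the 16 cells Maf, a transcription factor of that subset, was seen in 12, Blk, a kinase, in 4 and Sox13, a gamma-delta lineage factor, in 3. Their summed levels of S100a6 and S100a4, small calcium-binding proteins, were 2484 and 1525 CPM, against 89.5 and 44.7 CPM in the 19 cells led by Tcrg-C4. Cells led by Tcrg-C1 came from all 4 libraries (8, 4, 2 and 2 in the KO-female, WT-female, KO-male and WT-male libraries).

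Cytotoxic transcripts were seen among the 19 cells led by Tcrg-C4. Gzma (granzyme A) was seen in 7 of them, Nkg7, a granule membrane protein, in 10 and Klrd1, the CD94 receptor chain, in 9. Cells that the rule chose for NK receptor transcripts were among the 19. In the NK receptor arm 6 cells had a Tcrg-C4 UMI and 1 had a Tcrg-C1 UMI. Over all 55 cells with Tcrg-C, summed granule genes were at 1531 to 2144 CPM per library, against 2041 to 2222 CPM in all other cells. Gzma was seen in none of the 16 cells led by Tcrg-C1 and in 7 of the 98 without Tcrg-C. One cell held 69.4% of the 72 Gzma UMIs of the 19 cells. Ccl5, a chemokine of memory and cytotoxic lymphocytes, was at 1350 CPM in these cells and in 13 of 19. Its 1347 CPM in the Tcrg-C1 cells came to 88.3% from 1 cell.

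The 27 cells of the NK receptor arm were likewise mixed. Trac was seen in 19 of them, Zbtb16, the factor of innate-like T cells, in 10, Klrk1 (NKG2D) in 15, Klrd1 in 13, Fcer1g in 8, Tyrobp in 7 and Cd4 in 4. Tyrobp or Fcer1g UMIs without a Trac UMI were found in 7 of the 27. Summed Ccl5 was 4042 and 3256 CPM in the KO-female and WT-female libraries and 1001 and 746 CPM in the KO-male and WT-male libraries, each from 4 to 12 cells.

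All gated cells were then compared with all other cells of the same libraries, on UMIs summed per library (edgeR quasi-likelihood test with the library as a block, n = 4 libraries each). Fold changes use TMM scaling, and the CPM levels given beside them are plain shares of UMIs. Of 10330 genes tested, 1453 were called at an adjusted p under 0.05 (14.1%), 612 higher (5.92%) and 841 lower (8.14%). With RLE size factors the split was 687 higher and 635 lower, and with DESeq2 it was 591 and 452. With each cell thinned to 2000 UMIs after gating, 559 genes were called. Trdc, Ncr1, Klrb1c, Klre1, Foxp3 and Cd79a chose the cells and are left out of the list counts against other cells. Sums over cells cannot tell apart fewer cells that express a gene and less RNA per cell. Sums held 193649 to 367495 UMIs per library in gated cells. The expression filter asked for 1.23 CPM in at least 4 of the 8 sums. Of the 612 higher genes 78, and of the 841 lower genes 33, were past this level in fewer than 4 sums of the class where they were lower, and so passed only with the class where they were higher. For those genes the direction is a description: levels are given with no fold or p, and the list counts below say how many of them they hold.

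Of 13 listed gamma-delta receptor genes 6 passed the expression filter, and they did so through the gated sums, so their direction was nearly fixed and their count is a description. With no filter 9 of the 13 were called higher. Tcrg-C1 stood at 126, 227, 22.3 and 103 CPM in gated cells of the KO-female, WT-female, KO-male and WT-male libraries, and at 1.21, 0.442, 0.422 and 0.239 CPM in all other cells. Trgv2, a gamma variable segment, was at 55.8 to 108 CPM in gated cells and 0.505 to 0.803 CPM outside. Of 11 tested alpha-beta complex genes, 5 were lower and 1 higher; 3 were lower and 0 higher without the WT-female library, 3 were lower with DESeq2, and 2 were lower and 0 higher after thinning. Trac (log2 fold change -0.94, SE 0.14), Cd5 (-1.02, SE 0.15), an inhibitory co-receptor, and Cd28 (-0.57, SE 0.17), the co-stimulatory receptor bound by the beads, were among the lower ones. Cd3g was the higher one (0.50, SE 0.15), and Cd3e (0.16, SE 0.12) and Cd3d (0.26, SE 0.11) did not pass the test.

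NK receptors and granule genes formed the second group. Of 9 tested NK receptor genes outside the rule, 7 were higher and 0 lower, but Klrc2 and Klrc1 passed the filter only with the gated sums, which leaves 5. With no expression filter 13 of 25 were higher. Klrk1 was at 106, 87.8, 14.9 and 24.5 CPM in gated cells (KO-female, WT-female, KO-male, WT-male) and at 3.22, 2.40, 1.82 and 1.89 CPM outside, and Klrd1, Klrc1, Klrc2, Cd160, Cd96 and Cd226 were the others. The female libraries had the higher Klrk1 levels in gated cells. Of 12 tested cytotoxic granule genes, 8 were higher and 1 lower, or 7 and 1 without Gzma. Gzma was at 262, 25.8, 22.3 and 136 CPM in gated cells and at 0.0632 to 0.477 CPM outside. It too passed the expression filter through the gated sums, so its direction is a description. It was seen in 14 gated cells, of which 1 held 32.3% of its UMIs. Gzmb (3.37, SE 0.61) was seen in 12 gated cells, and 1 of them held 53.5% of its UMIs. Nkg7 (3.97, SE 0.49) and the protease inhibitor Cst7 (2.84, SE 0.38) were also higher, and serglycin, Srgn, the granule proteoglycan, was the lower one (-0.69, SE 0.10). On the Trdc arm alone, against the same other cells, 7 of 9 NK receptors were higher and 5 of 11 granule genes were higher and 2 lower, counts that were not divided by how the genes passed the filter.

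Of 24 tested lineage transcription factors 13 were higher and 2 lower. The number higher was 8 without the WT-female library, 9 without the KO-female library, and 8 of 21 after thinning. Maf was at 212, 305, 63.2 and 158 CPM in gated cells and at 7.07 to 13.5 CPM outside (log2 fold change 3.83, SE 0.25, edgeR adjusted p = 1.0e-12). Id2, which represses E proteins in innate lymphocytes, was at 187, 439, 197 and 152 CPM against 34.6 to 43.0 CPM (2.33, SE 0.17). Runx3, a factor of cytotoxic lymphocytes, was at 131 to 206 CPM against 27.9 to 35.7 CPM (2.25, SE 0.15). Zbtb16, Eomes, Rora and Ikzf2 were also higher, by 2.49, 2.56, 1.87 and 1.79. Lef1 (-0.61, SE 0.16) and Bach2 (-0.67, SE 0.15), factors of resting T cells, were lower, while Tcf7 (0.10, SE 0.15) and Bcl11b (0.07, SE 0.13) did not pass the test. Ikzf2 is also a regulatory T cell gene, and the rule removed cells with Foxp3.

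Of 16 tested homing genes, 9 were higher and 2 lower, and Cxcr3 and Ccr9 among the 9 passed the filter only with the gated sums. The chemokine receptors Ccr2 (4.15, SE 0.28) and Cxcr6 (3.55, SE 0.20) were higher, and so were the integrins Itga4 and Itgb7. Ccr7, the receptor for entry into lymph nodes, was lower (-0.98, SE 0.13). Ccr9, a gut homing receptor, was seen in 9 gated cells, with 56.9% of its UMIs in 1 cell. Of 13 tested cytokine receptors, 5 were higher and 0 lower: Il18rap (4.08, SE 0.51), Il12rb1 (3.51, SE 0.54), Il18r1 (2.60, SE 0.30), Il2rb (1.86, SE 0.16) and Il7r (1.24, SE 0.20). These are receptor chains for interleukins 18, 12, 2, 15 and 7.

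Secreted factors went both ways. Of 5 tested chemokines 4 were higher, or 2 with DESeq2. Ccl5 was at 985, 733, 1082 and 384 CPM in gated cells and at 19.8 to 35.5 CPM outside (4.76, SE 0.15). Xcl1 was at 405, 62.0, 59.5 and 92.5 CPM against 4.06 to 10.7 CPM (4.06, SE 0.29), and 1 cell held 52.7% of its gated UMIs. Ccl4 (1.51, SE 0.35) was higher in 2 of 4 libraries, and 1 cell held 58.3% of its gated UMIs. Of 13 tested cytokines 2 were higher and 4 lower, or 1 and 2 without the KO-female library. Areg, an epidermal growth factor family ligand and 1 of the 4, passed the filter only with the sums of other cells. Il2, the growth factor that activated CD4 T cells make, was at 41.8, 10.3, 14.9 and 40.8 CPM in gated cells and at 107 to 127 CPM outside (-2.10, SE 0.24, edgeR adjusted p = 1.3e-07). It was seen in 5.23% of gated cells and 9.75% of the others, or 1.96% and 5.30% after thinning to 2000 UMIs. Ifng was called higher (2.03, SE 0.52), yet its level was above that of other cells in 2 of 4 libraries and it was called in 7 of 11 settings. Tnfsf11 (-1.43, SE 0.18) and Tnfsf8 were lower, and Tnf (0.07, SE 0.16) did not pass the test.

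Of 33 tested early genes of T cell receptor signalling, 17 were lower in gated cells, 14 did not pass the test and 2 were higher (Jun and Ier3), against 8.14% lower among all genes, and their median log2 fold change was -0.62. Summed over the 33 genes, gated cells of the KO-male library were above its other cells (9044 against 8083 CPM), and those of the remaining 3 libraries were below. Fos, 1 of the 17, passed the filter only with the sums of other cells. The number lower was 10 without the KO-female library, 11 with DESeq2 and 14 with RLE size factors. The number higher was 0 without the KO-female library and after thinning. Nr4a1, an immediate early gene that follows receptor signal strength, was at 237, 392.5, 699 and 215 CPM in gated cells of the KO-female, WT-female, KO-male and WT-male libraries and at 555, 653, 564 and 540 CPM outside (-0.91, SE 0.16, edgeR adjusted p = 0.00019). The KO-male library was above its other cells and the remaining 3 were below. Cd40lg, the ligand with which CD4 T cells help B cells, was at 10.3 to 29.7 CPM against 67.0 to 79.8 CPM (-1.91, SE 0.25). Irf4 (-0.99, SE 0.13), Nr4a3 (-0.99, SE 0.14), Dusp5 (-0.94, SE 0.13) and Tnfrsf4 (-0.82, SE 0.18), the OX40 receptor, were lower as well. Icos (-0.01, SE 0.13), Tnfrsf9 (0.20, SE 0.14) and Nfkbia (-0.09, SE 0.11) did not pass the test.

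**Figure D3:**
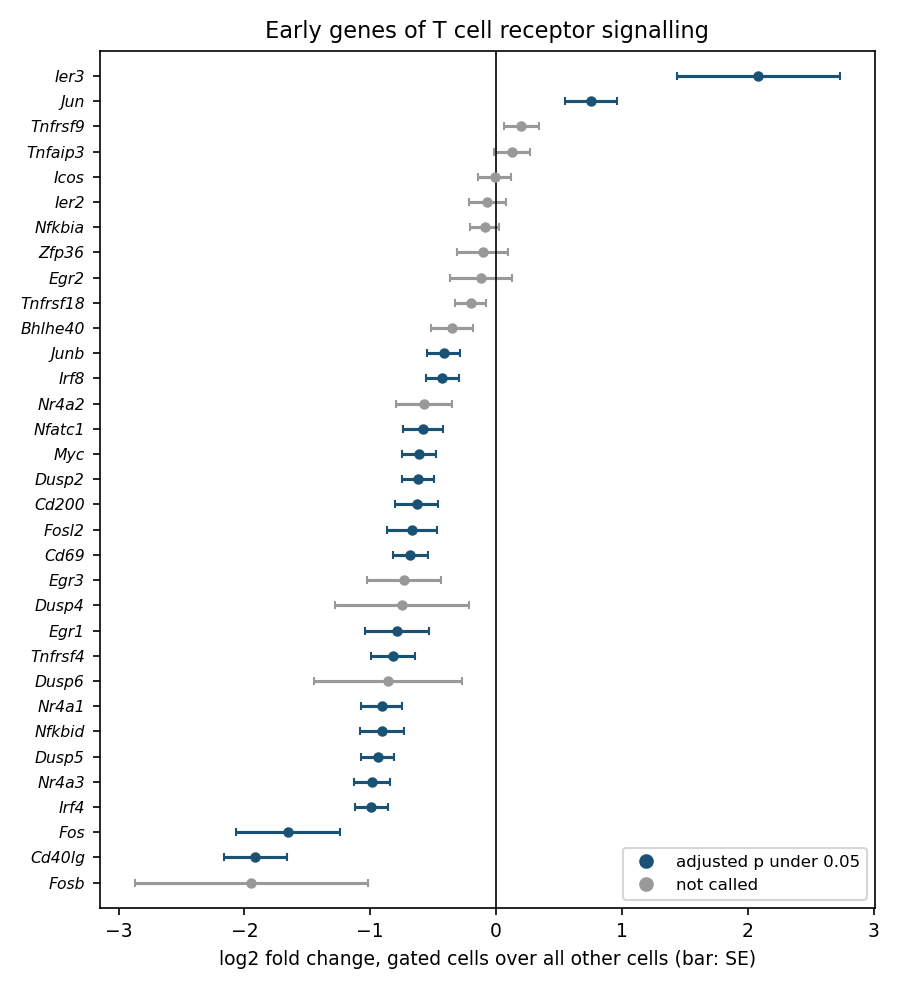
Log2 fold change of gated cells over all other cells, with its standard error, for the 33 tested early genes of T cell receptor signalling (edgeR, n = 4 libraries each); dark points passed an adjusted p of 0.05. Of the 33, 17 lie below 0 and passed, and Jun and Ier3 lie above 0 and passed.

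The 55 cells with Tcrg-C had the lower early gene levels. Summed over the 33 genes, cells with Tcrg-C were at 3453, 3718, 4587 and 1890 CPM in the KO-female, WT-female, KO-male and WT-male libraries. Gated cells without it were at 6132, 10396, 10539 and 5580 CPM, and all other cells at 7434 to 8255 CPM. Each library's cells with Tcrg-C were below both of its other groups. Nr4a1 was seen in 5 of the 55 cells (9.09%), in 52.0% of the 98 and in 60.6% of all other cells. After thinning to 2000 UMIs these shares were 5.45%, 39.8% and 41.3%, and those of Irf4 were 10.9%, 49.0% and 57.2%. In 16 cells led by Tcrg-C1, Nr4a1 had no UMI. Cd69, a membrane protein that appears within hours of activation, was seen in 38 of the 55 cells, and its level there was 315 to 695 CPM, against 1315 to 1446 CPM in all other cells. These too are descriptions of a division chosen after the values were seen.

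**Figure D4:**
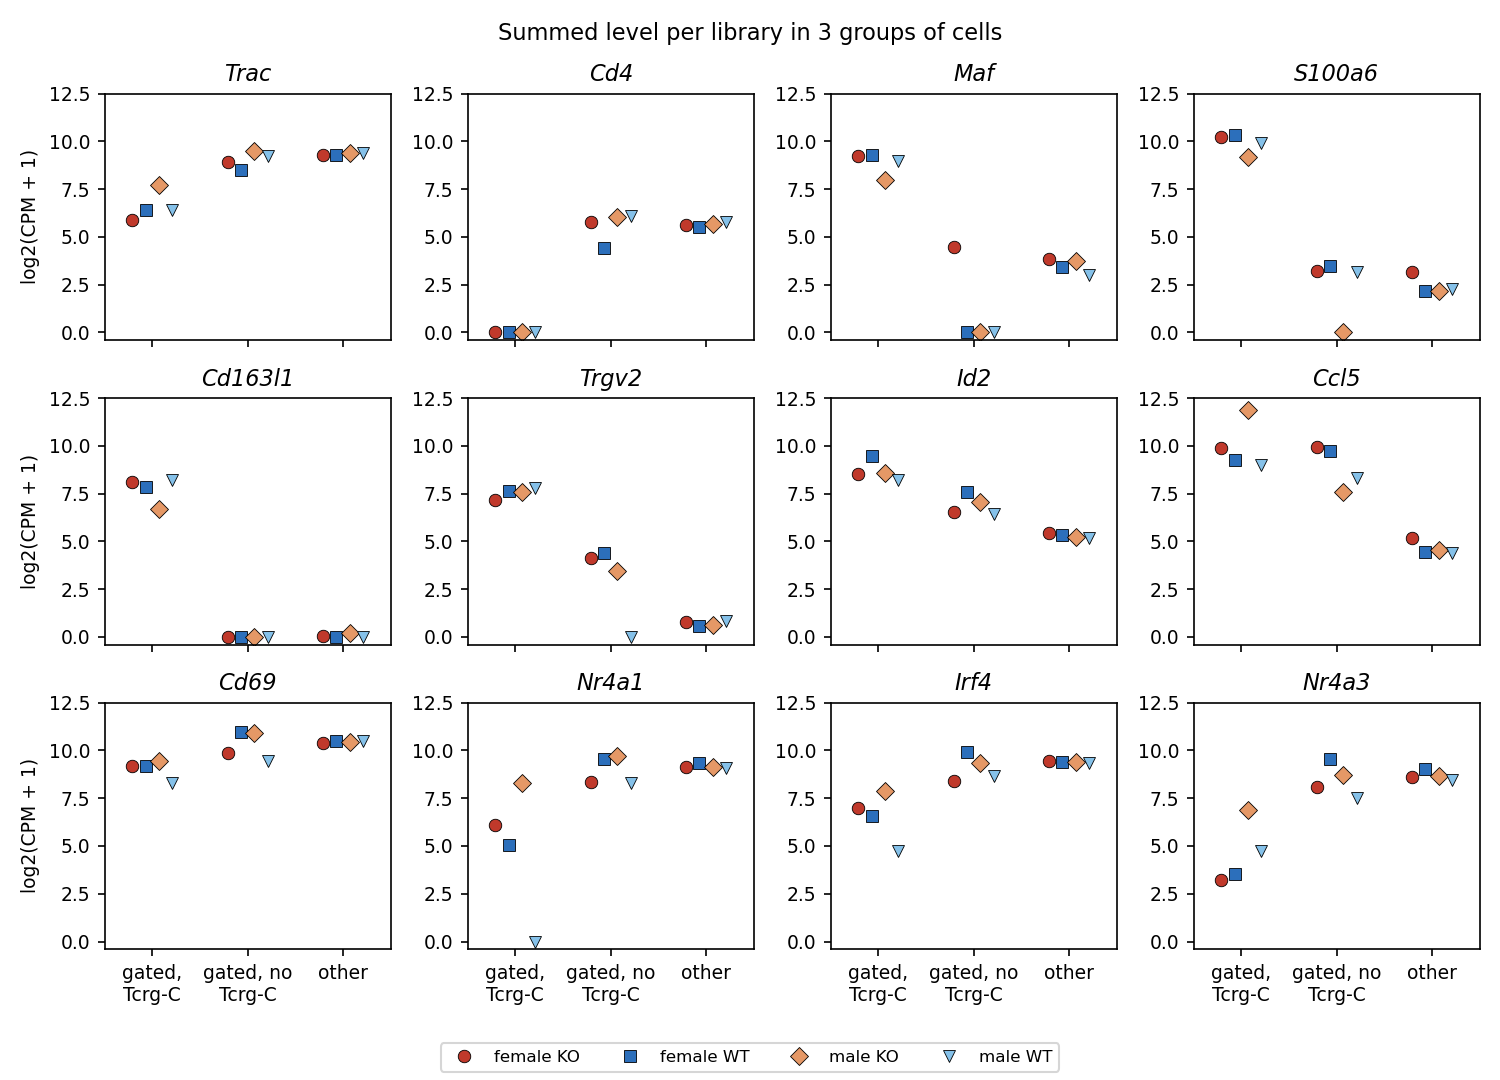
Level of 12 genes, as log2(CPM + 1) of UMIs summed per library, in gated cells with a Tcrg-C UMI (55 cells), gated cells without (98) and all other kept cells (18947); each point is 1 library, with KO and WT after the labels. Cd4 is at 0 in cells with Tcrg-C in every library, and Cd163l1 is at 0 in gated cells without.

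Of 21 tested type I interferon genes, 2 were higher and 1 was lower (median log2 fold change 0.22), against 5.92% higher and 8.14% lower among all genes. Ly6c2, a surface protein of memory-type lymphocytes, was among the higher ones (4.75, SE 0.39), and Ifi27l2a was the lower one (-0.61, SE 0.13). By size alone, the 12 largest higher genes outside the rule at a mean of at least 50 CPM were Cd163l1, Gzma, Tcrg-C1, Tcrg-C4, Trgv2, Ly6d, S100a6 (5.99), S100a4 (5.59), Tmem176a, Fgl2, Ccr9 and Ccl5. Of these, S100a6, S100a4 and Ccl5 passed the filter in other cells alone as well, and the remaining 9 passed only with the gated sums. Cd163l1 was at 92.1, 114, 26.0 and 95.2 CPM in gated cells and was seen in 13 of them and in 3 of 18947 other cells. Ly6d was seen in 6 gated cells. Among the 12 largest lower genes, Hba-a1, Hba-a2 and Igkc are erythroid and B cell transcripts, whose levels outside the gate were led by the WT-female library for globins (278 CPM of Hba-a1) and by the libraries labelled knockout for Igkc (330 and 176 CPM). The others were Il2, Cd40lg, Hspa4l, a heat shock protein gene (-1.69), Tbc1d30, Slamf1, Tnfsf11, Dancr, Itm2a and Pus7. Hba-a1, Hba-a2, Igkc and Tbc1d30 passed the filter only with the sums of other cells.

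Innate-like T cells that express Zbtb16 are another minor population of the spleen. The 143 CD3-positive gated cells were compared with 130 cells outside the gate that had at least 2 Zbtb16 UMIs (36, 13, 64 and 17 in the KO-female, WT-female, KO-male and WT-male libraries). Of 3400 genes tested, 601 were called (17.7%), 274 higher (8.06%) and 327 lower (9.62%) in gated cells. Zbtb16 and Trdc chose the cells and are not read here. Both kinds of sum were small, and the filter asked for 44.7 CPM in at least 4 of the 8, so 107 of the 274 higher and 134 of the 327 lower genes passed only with the class where they were higher. These are described by their levels and are not read as tested. S100a6 was at 427, 659, 161 and 270 CPM in gated cells and at 9.71, 9.63, 3.87 and 0 CPM in Zbtb16 cells, and is 1 of them, with no overlap between the classes. Vim, Ly6c1, Itm2a and the interferon-induced GTPases Tgtp1 and Iigp1 were of this kind too. Of 7 tested type I interferon genes 6 were higher and 1 lower, and 4 of the 6 and the lower one were of this kind, which leaves 2 higher. With no expression filter 9 of 21 were higher and 1 lower.

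Il4 was at 23.7, 26.6, 8.27 and 2.78 CPM in gated cells and at 636, 231, 641 and 325 CPM in Zbtb16 cells, with no overlap. It passed the filter only with the Zbtb16 sums, as did Ramp3, a receptor-activity modifier, and Dgat1, an enzyme of triglyceride synthesis. Of 8 tested granule genes 5 were lower and 0 higher in gated cells, and 1 of the 5 passed the filter in gated cells alone as well. Of 6 tested NK receptors 3 were lower and 1 was higher, and each of these 4 passed only with the class where it was higher. Cxcr6 (-1.96, SE 0.22), Il2rb (-1.45, SE 0.21) and Rora (-2.70, SE 0.20) were lower in gated cells than in Zbtb16 cells, although all 3 were called higher than in all other cells. Il7r (1.14, SE 0.28) was higher. Of 25 tested early genes 9 were lower and 3 higher, or 8 and 2 without the genes that passed only with the higher class.

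Between genotypes, 14 of 4540 genes were called within gated cells (0.308%), 6 higher (0.132%) and 8 lower (0.176%) in libraries labelled knockout (edgeR with a term for sex, n = 2 libraries each). The filter asked for 31.9 CPM in at least 2 of the 4 sums. Sp110, Gzmb, Nkg7, S100a4, Eloa, Egr3, Ly6d and Plagl1 passed it only with the label where they were higher. These 8 of the 14 are therefore given by their levels or named, with no fold or p from this fit. The fold of Ly6d with a library and the sex term left out, given below, is a description of its turn in direction. At an unadjusted p under 0.05 there were 217 genes, which is 4.78% of those tested. DESeq2 called 0 genes and gave 18 at an unadjusted p under 0.05. Without the term for sex 2 genes were called, and no gene was called in every setting. Sp110, an interferon-induced nuclear body gene on chromosome 1, had the largest change: 0 and 3.72 CPM in the KO-female and KO-male libraries, and 124 and 106 CPM in the WT-female and WT-male libraries. Outside the gate Sp110 was at 0.355 and 0.486 CPM against 103 and 84.7 CPM, so the libraries differed in the same direction in both. The 2 libraries labelled knockout held 1 Sp110 UMI in gated cells and the 2 labelled WT held 63. Irf5 itself had 4, 2, 2 and 4 UMIs in gated cells of the KO-female, WT-female, KO-male and WT-male libraries, too few to test.

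Il7r, the interleukin 7 receptor of resting lymphocytes, was at 142 and 175 CPM in gated cells of the KO-female and KO-male libraries and at 635 and 482 CPM in the WT-female and WT-male libraries (-1.81, SE 0.29, edgeR adjusted p = 9.9e-07). The 2 groups did not overlap, which carries little weight with 2 libraries against 2. The fit left 1 degree of freedom for the spread between libraries. Il7r was called in 8 of 9 other settings. Tnfsf11 and Lta were also lower in libraries labelled knockout. S100a4 overlapped between the groups, at 243 and 14.9 CPM against 423 and 190 CPM. Gzmb had 3 and 6 UMIs in the KO-female and KO-male libraries and 14 and 48 in the WT-female and WT-male libraries, and 1 cell held 38 of the 71. Egr1 (1.91, SE 0.34), Atf3 (1.57, SE 0.34) and Itm2a were higher. Plagl1 had 23 and 14 UMIs in the KO-female and KO-male libraries and 1 UMI in each of the others. Egr1, an immediate early factor, was at 114 and 450 CPM against 87.8 and 54.4 CPM, with no overlap and the KO-male library far above the rest. Without the KO-male library and with no term for sex, the log2 fold changes of Egr1 and Atf3 were 0.74 and 0.64, and neither was called. After thinning to 2000 UMIs, Egr1 was seen in 7.81% of gated cells in the KO-female and 8.70% in the WT-female library, and in 36.4% and 3.03% in the KO-male and WT-male libraries.

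The share of gated cells with Tcrg-C moved with these genes, at 39.1% and 21.2% in the KO-female and KO-male libraries against 52.2% and 33.3% in the WT-female and WT-male libraries. S100a4 was at 603 CPM in cells with Tcrg-C and at 2.54 CPM in those without, and Egr1 was at 22.5 and 241 CPM. The part of this share in the genotype differences was not tested. Ly6d overlapped between the groups, at 53.0 and 535 CPM against 10.3 and 193 CPM, and its UMIs came from 6 cells. Its direction turned when the KO-male library and the term for sex were both left out, which sets a female library against both sexes. Of 27 tested early genes 2 were higher (Egr1 and Egr3) and 0 lower, and of 10 tested granule genes 2 were lower (Gzmb and Nkg7). Among all genes 0.132% were higher and 0.176% lower. Egr3, Gzmb and Nkg7 passed the filter only with the label where they were higher, which leaves 1 early gene and 0 granule genes. None of the 9 tested NK receptors or 6 tested gamma-delta receptor genes was called in either direction, where 0.308% of all genes were. These 2 lists include genes of the rule here.

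**Figure D5:**
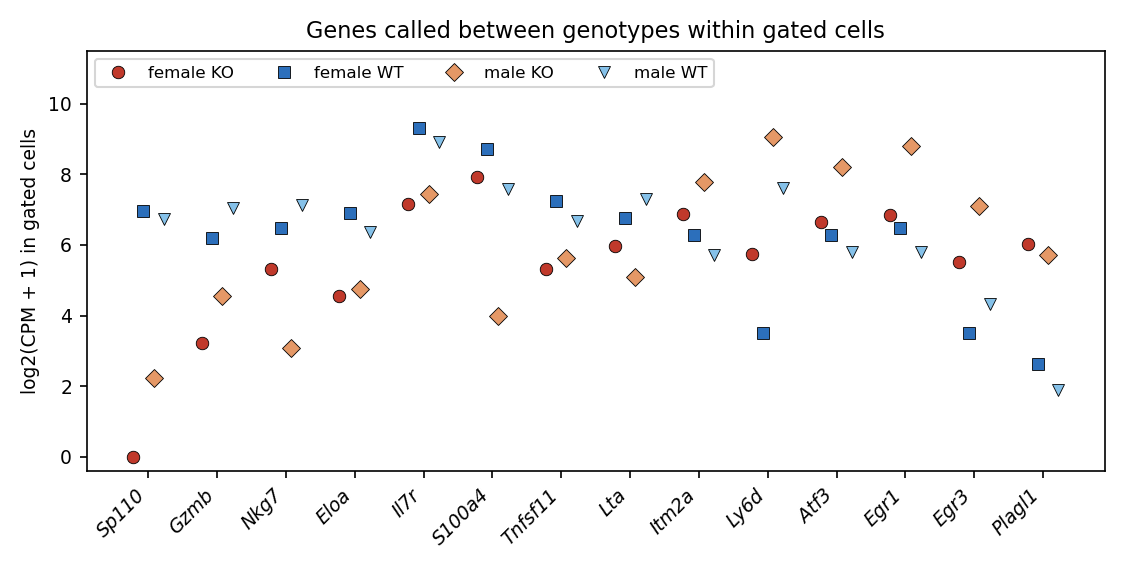
Level of the 14 genes called between genotypes within gated cells, as log2(CPM + 1) of UMIs summed per library; each point is 1 library, with KO and WT after the labels, and genes run from lowest to highest log2 fold change. Sp110 and Il7r show no overlap between the 2 labels, and S100a4 and Ly6d overlap.

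Over the 4 libraries together, gated cells carried 100% of the 16 Tcrg-V6 UMIs, 91.5% of 106 Cd163l1 UMIs, 86.0% of 50 Trdv4 UMIs, 77.9% of 199 Gzma UMIs and 62.7% of 212 Tcrg-C1 UMIs. In the KO-male library the shares were 46.7% for Cd163l1, 30% for Gzma and 23.1% for Tcrg-C1. Over the 4 libraries gated cells carried 9.14% of 777 Gzmb UMIs and 12.1% of 1734 Maf UMIs. For Gzmb this share was 41.0% in the WT-male library and 1.49% in the KO-male library.

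Their effect on a genotype comparison of the whole sample was small for called genes. Over all kept cells 155 of 12855 genes were called between genotypes (1.21%), 104 higher (0.809%) and 51 lower (0.397%) in libraries labelled knockout. With gated cells left out 125 of 12824 were called (0.975%), 89 higher (0.694%) and 36 lower (0.281%). The lists shared 120 genes, which is 77.4% of the first and 96% of the second. The 2 fits share all libraries. Over the 155 genes the median shift in log2 fold change was 0.0089, 8 shifted by over 0.1, and 0 changed sign. The 35 calls lost without gated cells had adjusted p-values of 0.0182 to 0.0498 with them and 0.0507 to 0.102 without them (edgeR).

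Some genes outside the rule that were high in gated cells had larger shifts, although none of those below was called in either fit. Tcrg-C1 went from -0.67 (SE 0.29) to 1.05 (SE 0.44) when gated cells were left out. S100a6 went from -0.29 (SE 0.15) to 0.37 (SE 0.26), and Gzmb from 0.99 (SE 0.26) to 1.49 (SE 0.35). Ifng was at 0.50 (SE 0.37) with gated cells and 0.51 (SE 0.45) without.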

How the data were processed

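Single-cell 3′ RNA libraries (v3.1 chemistry) of 4 samples were deposited as UMI counts per gene and barcode, for all barcodes and not normalized, made by the authors with Cell Ranger and mm10; the version is 6.0.2 per the submitters' processing notes, while the file headers name an older one. Annotation and strand use are not given in the sources used here, so overlapping and near-identical genes are uncertain. Of 32285 gene IDs, 99.6% were found in GENCODE M21. Members and gene lists were chosen with earlier results of these data known.

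Kept cells had at least 2000 UMIs, 500 genes and at most 10% mitochondrial UMIs. Doublets were kept; as an alternative the highest scrublet scores (scanpy 1.11.5) were removed, at 0.8% of cells per 1000. UMIs were summed per library and class (at least 5 cells) and tested with edgeR 4.0.16 (R 4.3.3), quasi-likelihood test, filterByExpr, TMM scaling and Benjamini-Hochberg adjustment, with the library as a block between classes and sex as a covariate between genotypes. The labels give 1 library per sex and genotype, so the term for sex is the only pairing. DESeq2 1.42.0 was an alternative. Levels in CPM are without TMM.

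Named genes come from the lists or are the 12 called genes of largest fold per direction with 1 direction in every library and a mean of at least 50 CPM in the higher class (6 per direction between genotypes); the few others were chosen after their values were seen. On simulated data with a log2 change of 1, the comparison with other cells (10130 genes) recovered 47.9% of changed genes and the genotype test in gated cells (4226 genes) 23.6%, with 11.5% and 10.4% of calls false. A few genes of these lists are not reported here.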

Additional observations from a re-analysis of the deposited data

How the results depend on the processing

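The difference in gated share between genotypes ran from -0.498 to 0.0473 percentage points when each library was left out, and turned positive without WT replicate 1 (0.0473) and without KO replicate 2 (0.0405). With cells thinned to 2000 UMIs before the gate it was -0.0537, over 64 gated cells, with a knockout mean of 0.337% against 0.770% without thinning. Genes called against other cells numbered 559 after thinning and 959 to 1512 with a library left out, and DESeq2 and RLE scaling gave 1043 and 1322. Against Zbtb16 cells DESeq2 called 361, and leaving out a library gave 374 to 692. Between genotypes within gated cells DESeq2 called 0 genes and the fit with no sex term 2. Leaving out both a library and the sex term gave 40, 48, 17 and 7 genes, and Ly6d turned to -1.16 without KO replicate 2 and the sex term; where this left 1 library in a group, it was assumed to vary like the others. For all cells without gated cells the count was 20 with no expression filter, 48 with DESeq2, 76 without doublets, 6 with no sex term, and 11, 99, 21 and 29 with a library and the sex term both left out. The causes were not tested. Of 113 genes examined against other cells, 66 were called in every setting and 0 reversed. The Trdc arm alone, an alternative chosen after seeing the data, gave 977 genes. The CD3-positive against CD3-negative comparison and its alternatives were not run, since 3 libraries had under 5 CD3-negative cells. The genotype fits are paired by sex, the only pairing the labels give, so the fit with no sex term is the unpaired one. With 153 gated cells, values of genes with few UMIs often rest on 1 or a few cells.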

Other observations

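Helios (Ikzf2), a transcription factor of some gamma-delta and regulatory T cells, was at 772 CPM in the 50 cells of the Trdc arm without a Trac UMI and at 93.4 CPM in the 76 with one, and in every library the cells without Trac were the higher. Their median depths were 4869 and 8191.5 UMIs. This division was chosen after the values were seen, and no test was made.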
